A study of Mus musculus with 8 samples.

Results

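Dclk1 and 5 other genes of microtubule-binding proteins, Dclk2, Map1a, Map1b, Map4 and Stmn1, were examined in mesenchymal stem cells that carry the leptin receptor (LEPR+), sorted from the marrow of mouse long bones. They are 6 of the 52636 genes in the count matrix, found by symbol, and all 6 passed the filter on low counts. The set was built around Dclk1, which was chosen by its difference between the groups compared here. Its values in that comparison are therefore a description, without a test, and the other members were picked for their kinship or function with those results known. Bulk polyA RNA was sequenced from cells sorted as living, CD45-, Ter119-, CD31-, CD144- and LEPR+. All mice were C57BL/6 and received 150 µg of protein by vein each week for 3 weeks: the LTβR-Ig group (4 libraries) got the lymphotoxin β receptor as a soluble decoy for its ligands, and the control group (4 libraries) got HEL-Ig, an IgG1 against hen egg lysozyme. Age is not given in the sources used here. No label ties a library to its own mouse or to a pool, so p-values and errors measure the spread between these libraries, which may be technical.

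Microtubules are hollow polymers of tubulin that serve as tracks for transport, shape the cell and build the mitotic spindle. Microtubule-associated proteins (MAPs) bind along the polymer and steady it, while stathmins bind free tubulin and favour disassembly. Dclk1 and Dclk2 encode doublecortin-like kinases, which join doublecortin domains that bind microtubules to a kinase domain related to the calmodulin kinases. These proteins are best known from neurons, and DCLK1 also from tuft cells of the gut. Map1a and Map1b encode large neuronal MAPs, Map4 the broadly expressed MAP of non-neuronal cells, and Stmn1 the founding stathmin, often high in dividing cells.

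Total gene counts were 52378101 to 64403177 per library, with 18383 to 19781 genes detected. Markers of LEPR+ stroma (11 genes) summed to 31504 to 39714 CPM in control and 34534 to 43979 CPM in LTβR-Ig libraries. CPM are counts scaled to a library size of 1e6 after TMM scaling, which adjusts library sizes for composition. RNA of cells that the gate should remove was present, with erythroid markers (12 genes) at 22629 to 56026 and 22914 to 42970 CPM. All 11 stromal marker genes, Lepr among them, had counts, and 1 of them, Ngfr, was too low to be tested.

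Dclk1 has 2 promoters in the RefSeq table, the second of them inside the gene, where shorter transcripts begin. The matrix gives 1 count per gene, so transcripts from the 2 starts cannot be told apart. The 250 bases before each start are shown, with those of the paralog Dclk2 and of Map1b, the other member whose groups did not overlap, because promoters of Dclk1 and Dclk2 differ in a simple feature. Capitals mark CpG dinucleotides, and each sequence runs 5′ to 3′ on the gene's strand (build GRCm38.p6). Dclk1 outer start (chr3:55242114-55242363, plus strand), Dclk1 inner start (chr3:55461478-55461727, plus strand), Dclk2 (chr3:86920885-86921134, minus strand) and Map1b (chr13:99516603-99516852, minus strand) read:
Dclk1 outer start: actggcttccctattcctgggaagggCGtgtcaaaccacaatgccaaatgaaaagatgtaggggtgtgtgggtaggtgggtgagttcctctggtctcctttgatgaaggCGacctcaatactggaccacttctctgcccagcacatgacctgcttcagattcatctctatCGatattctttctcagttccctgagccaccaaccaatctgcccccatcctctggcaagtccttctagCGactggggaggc
Dclk1 inner start: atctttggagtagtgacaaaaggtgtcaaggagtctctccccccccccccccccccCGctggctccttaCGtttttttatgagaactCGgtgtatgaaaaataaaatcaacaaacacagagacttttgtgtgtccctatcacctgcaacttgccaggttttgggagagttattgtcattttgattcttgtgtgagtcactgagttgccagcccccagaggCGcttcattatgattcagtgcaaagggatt
Dclk2: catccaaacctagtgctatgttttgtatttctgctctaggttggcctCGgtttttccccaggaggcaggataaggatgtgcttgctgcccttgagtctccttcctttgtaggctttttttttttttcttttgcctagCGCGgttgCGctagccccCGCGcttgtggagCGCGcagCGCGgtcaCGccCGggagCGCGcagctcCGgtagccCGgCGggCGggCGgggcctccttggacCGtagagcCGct
Map1b: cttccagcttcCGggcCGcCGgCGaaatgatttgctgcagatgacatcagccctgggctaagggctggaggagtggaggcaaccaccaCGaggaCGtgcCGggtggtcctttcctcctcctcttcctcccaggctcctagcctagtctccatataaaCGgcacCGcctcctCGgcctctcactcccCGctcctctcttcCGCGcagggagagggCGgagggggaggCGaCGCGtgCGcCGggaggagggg

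Each Dclk1 promoter held 4 CpG, against 21 in Dclk2 and 19 in Map1b. The median over 32851 mouse promoters of the same length was 6, and 37.8% of promoters had fewer than 4. Map1a, with 21 CpG, resembled Dclk2, and the outer and inner promoters of Map4 held 36 and 4. Of the 6 members, 5 matched an entry in the promoter table. The κB motif, the binding sequence of NF-κB in its common consensus form, was searched on both strands, and none of the 7 member promoters held a match, against 3.9% of all promoters. This says only that the letters are not in these windows.

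Dclk1 lies on the plus strand of chromosome 3 (55242364 to 55539068, mm10; ENSMUSG00000027797.15), with 15 annotated transcripts. Its levels in control replicates 1 to 4 were 57.8, 68.5, 71.5 and 72.3 CPM. In LTβR-Ig replicates 1 to 4 they were 17.3, 11.5, 18.7 and 16.0 CPM. The lowest control library held more than 3 times the CPM of the highest LTβR-Ig library, and the groups did not overlap. The means were 67.5 ± 6.69 and 15.8 ± 3.12 CPM (SD, n = 4 each), 4.26-fold lower with LTβR-Ig (log2 fold change -2.09, SE 0.18, 95% interval -2.51 to -1.68). In bulk samples, fewer cells that make a transcript and less of it per cell cannot be told apart. Of all genes tested with edgeR, 6 of 16045 passed an adjusted p of 0.05, a background of 0.0374%. Dclk1 is 1 of these 6, which is how it was chosen, and none of the other 5 members passed. Without control replicate 3 only 2 genes passed, and Dclk1 was not among them.

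**Figure D1:**
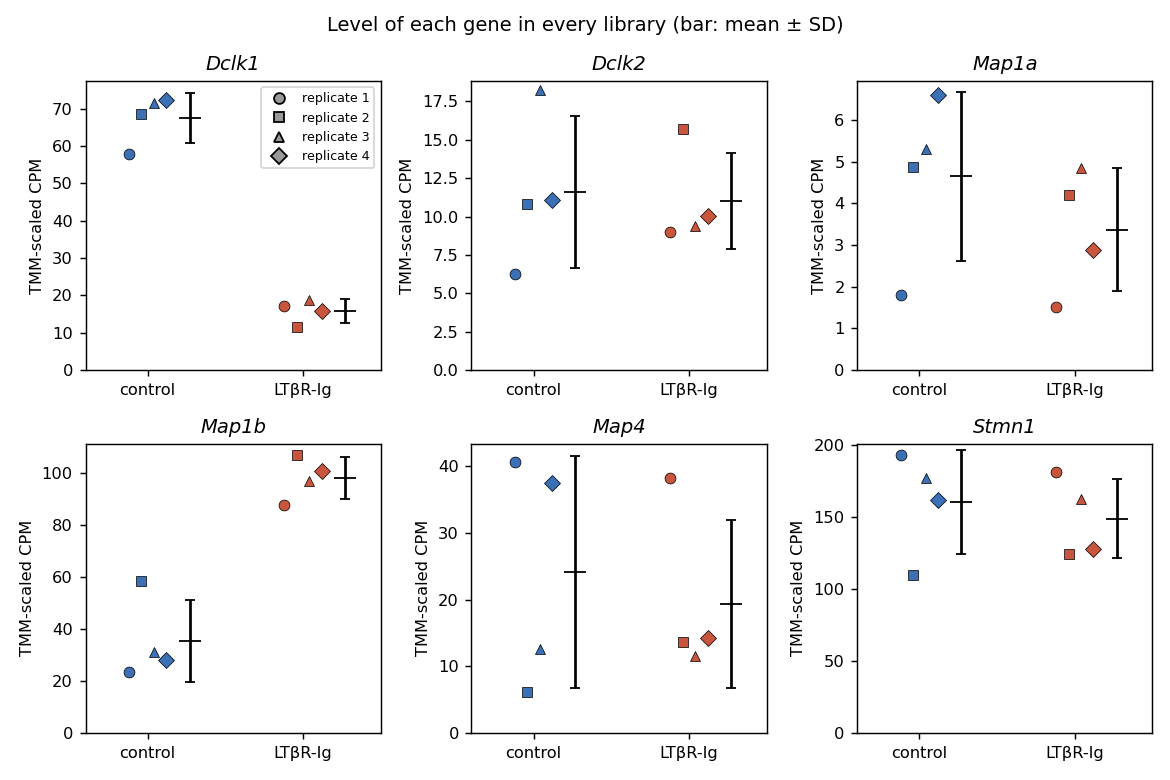
TMM-scaled CPM (vertical axes, from 0) of the 6 genes in each of 4 control (blue) and 4 LTβR-Ig libraries (red); marker shape gives the replicate number and black bars the mean ± SD. Groups are apart for Dclk1 (57.8 to 72.3 against 11.5 to 18.7 CPM) and Map1b (23.5 to 58.5 against 87.9 to 107 CPM) and overlap for the other 4 genes.

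The locus was checked for reads that could belong to other genes. Of 15576 distinct 76-base stretches in Dclk1 transcripts, the read length of this study, 16 also occur in another annotated gene, the antisense locus Gm42609, and none in Dclk2. In all, 6 annotated loci overlap Dclk1. Gm42609 held at most 42 counts per library and the same-strand locus Gm19817 at most 212, against 607 to 4490 counts for Dclk1. Adding the counts of all 6 loci to Dclk1 gave a log2 fold change of -2.04. The nearest tested protein-coding genes on either side had intervals across 0. For Spg20, 105 kb upstream, the log2 fold change was -0.25 (95% interval -0.63 to 0.13), and for Nbea, 86.1 kb downstream, -0.11 (95% interval -1.01 to 0.78).

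Dclk2, the close paralog, lies elsewhere on chromosome 3 (86786151 to 86920852, minus strand; ENSMUSG00000028078.14). Its control levels were 6.25, 10.8, 18.2 and 11.1 CPM in replicates 1 to 4, and its LTβR-Ig levels 9.03, 15.7, 9.36 and 10.1 CPM. Control replicate 3 and LTβR-Ig replicate 2 were the highest of their groups, and the groups overlapped. The log2 fold change was -0.07 (SE 0.35, 95% interval -0.88 to 0.73, edgeR adjusted p = 1), so a fall as large as that of Dclk1 lies outside the interval. Smaller changes of either sign lie inside it, and the sign turned in 4 of 15 other settings, up to 0.24 without control replicate 3. Per kb of exon, the ratio of Dclk1 to Dclk2 was 6.39, 4.36, 2.71 and 4.49 in control replicates 1 to 4. It was 1.32, 0.503, 1.37 and 1.10 in LTβR-Ig replicates 1 to 4. Dclk1 was thus above its paralog per kb in all 4 control libraries, by 2.71 times or more, and at most 1.37 times as high in the LTβR-Ig libraries. These ratios depend on the length used: per kb of the longest transcript the LTβR-Ig means were 1.99 for Dclk1 and 1.37 for Dclk2.

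Of the other genes with doublecortin domains, Dclk3 and Dcdc2b passed the filter. Dclk3, the third kinase of the family, was at 6.21 ± 2.65 and 9.90 ± 4.81 CPM (SD, n = 4 each; log2 fold change 0.67, 95% interval -0.41 to 1.75). Per kb of exon its means were 2.07 in control and 3.29 in LTβR-Ig libraries. Those of Dclk2 were 1.10 and 1.05, and those of Dclk1 4.42 and 1.04. Dcdc2b was below 1 CPM on average in both groups. The neuronal founder Dcx, with Dcdc2a, Dcdc2c, Rp1 and Rp1l1, had 0 counts in all 8 libraries, which allows at most 0.0458 to 0.0584 CPM per library (3 counts, counting error only). Dclk1 is also known from tuft cells, so a list of 7 tuft cell markers was summed. It came to 0.112 to 0.794 CPM in control and 0 to 2.13 CPM in LTβR-Ig libraries, with 3 of the 7 genes at 0 throughout.

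Map1b (chromosome 13, 99421446 to 99516540, minus strand; ENSMUSG00000052727.6) encodes a MAP of growing axons that binds microtubules and actin. Control replicates 1 to 4 held 23.5, 58.5, 31.1 and 28.2 CPM. LTβR-Ig replicates 1 to 4 held 87.9, 107, 97.2 and 101 CPM. Every LTβR-Ig library was above every control library, and control replicate 2 stood about midway between the other controls and the LTβR-Ig libraries. The means were 35.3 ± 15.7 and 98.2 ± 8.03 CPM (SD, n = 4 each), 2.78-fold apart (log2 fold change 1.48, SE 0.27, 95% interval 0.86 to 2.09). It did not pass over all genes (edgeR adjusted p = 0.157, unadjusted p = 0.000443). It passed without control replicate 2 (log2 fold change 1.83, edgeR adjusted p = 0.0237) and in DESeq2 (adjusted p = 9.85e-05), which were 2 of the 15 other settings planned, and not in limma-voom (adjusted p = 0.089). Over all genes DESeq2 called 338, edgeR 6 and limma-voom 14. At an unadjusted edgeR p under 0.05, 3.39% of all genes tested were higher with LTβR-Ig and 2.93% lower. Groups without overlap were found for 2.36% of genes, with LTβR-Ig higher, and for 2.53%, with it lower. Of the 6 members, Map1b was higher and Dclk1 lower by both measures.

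The summed markers of Schwann cells and nerve were, like Map1b, higher in every LTβR-Ig library than in any control library, and their part in the result was not tested. The 10 genes summed to 232 to 413 CPM in control and 415 to 739 CPM in LTβR-Ig libraries. Among those with 0 counts in all 8 libraries were the Schwann cell lineage genes Sox10 and Foxd3 and the neuronal genes Elavl4 and Snap25. The neuronal MAP genes Mapt, with 0 counts in all libraries, and Map2, with at most 34 counts, did not pass the filter either. Most of the summed level came from Ncam1 and S100b, which had 116061 and 85410 counts over the 8 libraries, against 1728 or fewer for each of the other 3 genes detected. The median log2 fold change of the 5 tested genes had the other sign, at -0.73. Endothelial, megakaryocyte, osteoblast and erythroid marker sums overlapped between the groups. Single markers did not always follow the sums, since Ibsp made up most of the osteoblast and chondrocyte sum. In that list 2 of 7 tested genes were higher at an unadjusted edgeR p under 0.05, Alpl (log2 fold change 0.95, without overlap) and Sp7 (0.95). Over all genes tested, 3.39% were higher at that p and 2.36% were higher without overlap. Of the LEPR+ stroma markers, 2 of 10 tested were lower without overlap, Kitl (-0.58) and Pdgfra (-0.29), against 2.53% of all genes tested. None of these 4 passed over all genes with edgeR, and their part in the results was not tested.

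**Figure D2:**
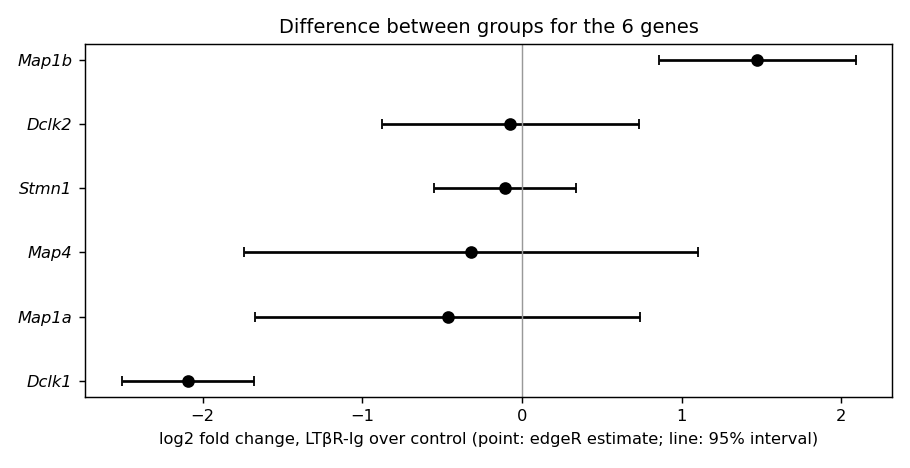
Log2 fold change of LTβR-Ig over control for the 6 genes (horizontal axis; points are edgeR estimates, lines 95% intervals). The intervals of Dclk1 (-2.51 to -1.68) and Map1b (0.86 to 2.09) lie on opposite sides of 0, and those of the other 4 genes span it; Dclk1 was chosen by this value.

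Map1a (chromosome 2, 121289600 to 121310832, plus strand; ENSMUSG00000027254.13), the relative of Map1b that prevails in mature neurons, was the lowest member. Its control levels were 1.81, 4.87, 5.30 and 6.60 CPM and its LTβR-Ig levels 1.52, 4.21, 4.85 and 2.88 CPM in replicates 1 to 4. Replicate 1 was the lowest library in both groups. The log2 fold change was -0.46 (SE 0.53, 95% interval -1.67 to 0.74, edgeR adjusted p = 1). Per kb, Map1b exceeded Map1a by 3.28 to 10.0 times in control and by 15.4 to 44.3 times in LTβR-Ig libraries. The groups did not overlap in this ratio, as they already did not in Map1b alone. The end of Map1a overlaps Ppip5k1 on the other strand, and 1.62% of its 76-base stretches occur in that gene.

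Map4 (chromosome 9, 109931460 to 110083955, plus strand; ENSMUSG00000032479.15) varied most of the 6 between libraries of the same group. Control replicates 1 to 4 held 40.6, 6.09, 12.6 and 37.6 CPM, and LTβR-Ig replicates 1 to 4 held 38.2, 13.6, 11.5 and 14.2 CPM. Thus 3 libraries, from both groups, lay between 37.6 and 40.6 CPM and the other 5 between 6.09 and 14.2 CPM. The coefficient of variation was 71.9% in control and 65.0% in LTβR-Ig libraries. Over control libraries the median was 24.4% for tested genes of 10 to 50 CPM. The log2 fold change of -0.32 had a 95% interval of -1.74 to 1.10 (edgeR adjusted p = 1) and turned to 0.05 without control replicate 1. The interval holds a 2-fold change in either direction.

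Stmn1 (chromosome 4, 134468320 to 134473843, plus strand; ENSMUSG00000028832.11) was the most abundant member. Control replicates 1 to 4 held 193, 110, 177 and 162 CPM, and LTβR-Ig replicates 1 to 4 held 181, 124, 162 and 128 CPM. The groups overlapped almost fully, and the log2 fold change was -0.11 (SE 0.20, 95% interval -0.55 to 0.34, edgeR adjusted p = 1). Of its 76-base stretches, 15.3% also occur in the locus Gm11223, which held 85 to 218 counts per library against 6555 to 12068 for Stmn1, so the share of reads assigned to Stmn1 is uncertain. Stmn2 and Stmn3, its neuronal relatives, had counts in 1 library each, and Stmn4 in none. Genes of the mitotic spindle and proliferation (17 genes), with which Stmn1 is often expressed, summed to 1407 to 2054 CPM in control and 1239 to 1902 CPM in LTβR-Ig libraries. In that list 1 of 17 genes (5.88%, against 6.32% of all genes tested, so near the background) had an unadjusted p under 0.05. It was Aurka, a spindle kinase, at 0.31 on the log2 scale (edgeR adjusted p = 0.671). Prc1, next by p, had 0.35 (95% interval -0.03 to 0.74), and Nusap1, the most abundant per kb, -0.31 (95% interval -0.92 to 0.29).

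Levels of different genes were compared per kb of exon. In control libraries the order was Stmn1 (83.4 ± 18.8 CPM per kb), Dclk1 (4.42 ± 0.438), Map1b (2.23 ± 0.993), Map4 (1.60 ± 1.15), Dclk2 (1.10 ± 0.469) and Map1a (0.382 ± 0.167), each as mean ± SD with n = 4. Stmn1 stood above 95.8% of the tested genes and Dclk1 above 56.1%. Map1b, Map4 and Dclk2 overlapped as neighbours in this order, whereas Dclk1 was above Map1b, and Dclk2 above Map1a, in each control library. In LTβR-Ig libraries the order was Stmn1 (77.4 ± 14.2), Map1b (6.20 ± 0.507), Map4 (1.28 ± 0.833), Dclk2 (1.05 ± 0.297), Dclk1 (1.04 ± 0.204) and Map1a (0.277 ± 0.121). Dclk1 there stood above 27.3% of tested genes and Map1b above 63.6%, against 41.0% in control libraries. Map4, Dclk2 and Dclk1 overlapped there, with Map1b above and Map1a below all 3. With the length of the longest transcript in place of all exons, Dclk1 was at 8.48 and Map4 at 3.98 CPM per kb in control libraries, and Map4 then stood above Map1b (2.99). In LTβR-Ig libraries Dclk1 (1.99) then stood above Dclk2 (1.37), so the order of these 2 genes turned.

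**Figure D3:**
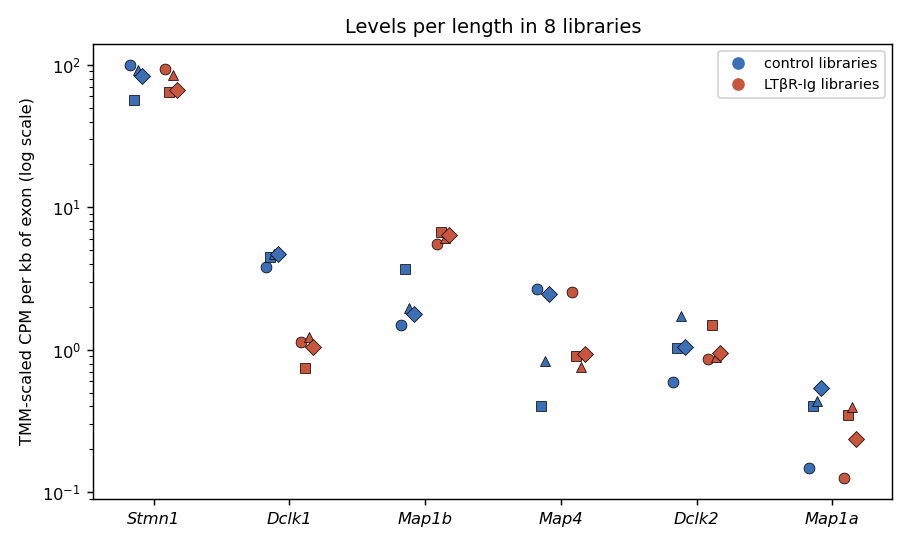
TMM-scaled CPM per kb of exon (log axis) for the 6 genes in 4 control (blue) and 4 LTβR-Ig libraries (red), ordered by the control mean; marker shapes give replicate numbers 1 to 4 as circle, square, triangle and diamond. Dclk1 moved from 4.42 to 1.04 on average and Map1b from 2.23 to 6.20, so the order of the 2 genes differs between the groups.

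The wider microtubule machinery was read from 12 lists that hold 155 genes beside the 6 members, 130 of which were tested. The lists include calmodulin kinase relatives (9 genes tested), which are kin of the Dclk1 kinase domain and not microtubule genes as such. None passed over all genes with edgeR or limma-voom. DESeq2, which called 338 of all genes where edgeR called 6, called 5 here, all higher: Map1lc3a, Tuba1c, Tubb2a, Tubb6 and Kif21a. Kif21a did not pass the filter for edgeR. Its log2 fold change in DESeq2 was 8.54, against 0.356 to 0.945 for the others. At an unadjusted edgeR p under 0.05, 10 were higher and 1 was lower, which is 8.46% of those tested against 6.32% of all genes. Among the 10 higher genes were 3 calmodulin kinase relatives, Pnck, Camk1 and Camk4, and 5 tubulins. The median log2 fold change was 0.05, against -0.00 over all genes. The groups did not overlap for 8 genes that were higher and 1 that was lower, the deacetylase gene Sirt2 (log2 fold change -0.21), together 6.92% of these genes against 4.89% of all genes tested.

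Among structural MAPs, 16 of 20 were tested, and 2 had an unadjusted p under 0.05 as higher and 1 as lower, against 3.39% and 2.93% of all genes tested. Besides Map1b these were Map1lc3a and Mtus1. Map1lc3a encodes LC3A, an autophagy protein first found bound to MAP1 and read apart from it here, at 25.2 ± 3.09 and 45.1 ± 10.3 CPM (SD, n = 4 each; log2 fold change 0.84, edgeR adjusted p = 0.27). Mtus1, which encodes a microtubule-stabilizing protein, was at 49.9 ± 12.7 and 29.6 ± 8.42 CPM (log2 fold change -0.75, edgeR adjusted p = 0.657). Map1lc3b, the most abundant of the list per kb, had -0.05 (95% interval -0.27 to 0.16).

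None of the 12 plus-end, 12 minus-end, 6 severing, 17 tubulin-modifying, 12 MAP-directed kinase and 18 transport motor genes tested had an unadjusted p under 0.05. The 2 genes of each list with the smallest p had 95% intervals across 0. They were Ckap5 (log2 fold change -0.30) and Macf1 (-0.45) for plus ends, and Camsap1 (-0.56) and Tubgcp3 (-0.37) for minus ends. Severing genes were Fign (-0.53) and Fignl1 (-0.35), and tubulin-modifying genes Vash2 (-0.94) and Ttll1 (0.54). The MAP-directed kinase list gave Mast4 (-0.36) and Cdk5r1 (-0.90), and the motors Kif13a (0.53) and Klc1 (0.58). Mapre1, which encodes the plus-end protein EB1, had 0.13 on the log2 scale (95% interval -0.09 to 0.36), Tubg1, γ-tubulin, -0.13 (95% interval -0.52 to 0.26), and the severing subunit gene Katna1 -0.00 (95% interval -0.35 to 0.35). The motor subunit gene Dync1li1 had 0.18 (95% interval -0.16 to 0.52), and Gsk3b, a kinase of MAPs, -0.08 (95% interval -0.39 to 0.23). From Mapre1 on, these are the most abundant genes of their lists per kb, as is Ttll12 (-0.09, 95% interval -0.53 to 0.36) for tubulin modification. The tubulins themselves had 5 of 12 tested genes with an unadjusted p under 0.05, all higher and with no overlap between groups, where 3.39% of all genes tested were higher at that p and 2.36% were higher without overlap. Among the 5 were Tubb6 (log2 fold change 0.95, edgeR adjusted p = 0.244) and Tubb2a (0.72, edgeR adjusted p = 0.28). Tubb5, the most abundant, had 0.05 (95% interval -0.18 to 0.29).

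**Figure D4:**
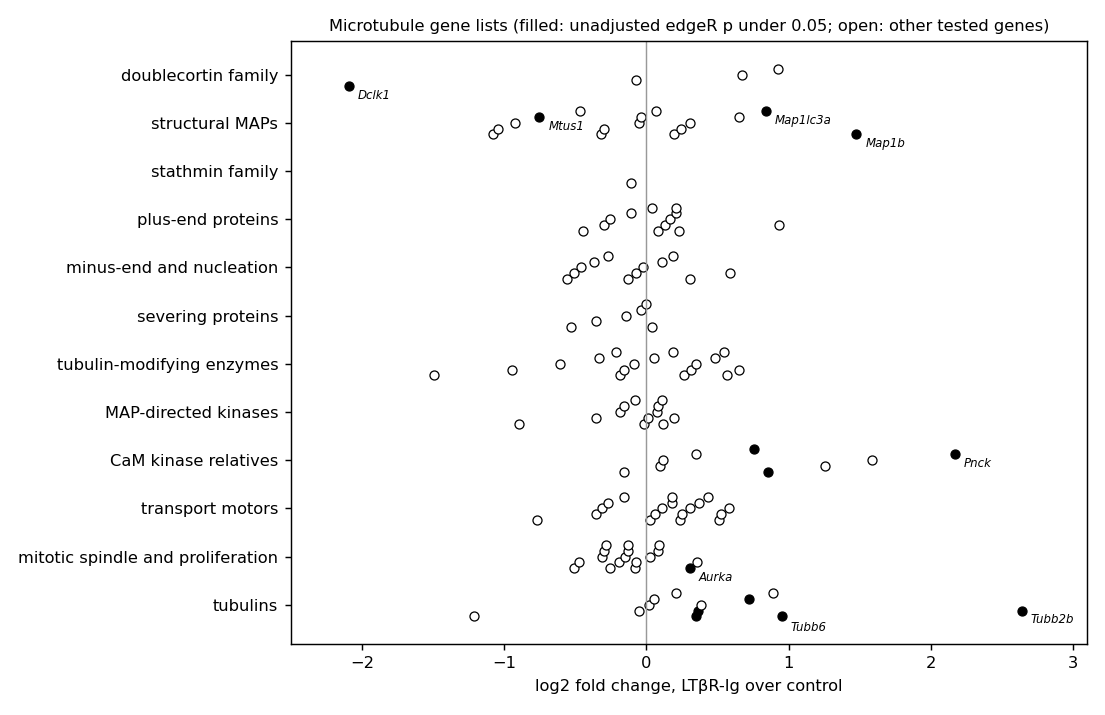
Log2 fold change of LTβR-Ig over control (horizontal axis) for each tested gene of 12 microtubule lists, calmodulin kinase relatives included (rows; vertical spread within a row is only for legibility). Filled points had an unadjusted edgeR p under 0.05; Dclk1 at -2.09 is farthest to the left, and 5 of 12 tubulins are filled, all to the right of 0.

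Genes whose levels followed those of Dclk1 most closely were found by the root mean square difference of log2 CPM, each centred on its own mean over the 8 libraries. Since Dclk1 differs between the groups, such genes are lower with LTβR-Ig by construction, and the choice also favours genes that share its high and low libraries. The closest was Nrip2, which encodes a nuclear receptor interacting protein, with a difference of 0.22. Its means were 20.2 ± 2.66 CPM with HEL-Ig and 4.17 ± 1.51 CPM with LTβR-Ig (SD, n = 4 each). Next came Ccl19-ps1, a pseudogene of the chemokine gene Ccl19 (0.24), Fmn1, a formin that acts on actin (0.35), and Caprin2 (0.39). The others were Angptl1, a secreted protein gene (0.40), the kynurenine pathway gene Afmid (0.42), the serpin gene Serpina3g (0.44) and the monocyte chemokine gene Ccl7 (0.44). In all 8 genes the groups did not overlap, which largely follows from this choice. Of all genes tested, 2.53% were lower with LTβR-Ig without overlap. LTβR-Ig replicate 2 was the lowest library for Dclk1, Nrip2, Ccl19-ps1, Fmn1, Caprin2, Angptl1, Afmid and Serpina3g, and not for Ccl7. Reads of Ccl19-ps1 and Serpina3g may be shared with close copies of these genes.

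**Figure D5:**
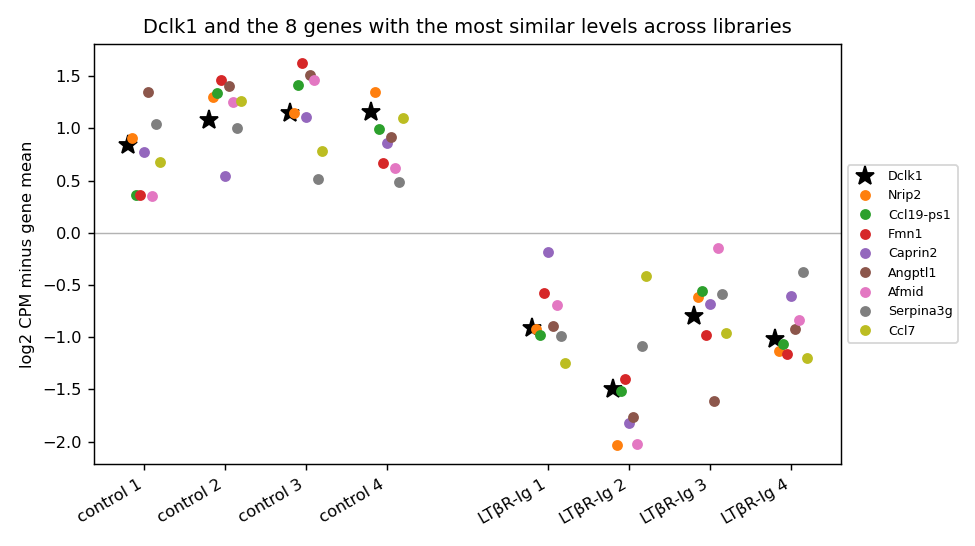
Log2 CPM minus the gene's mean over 8 libraries (vertical axis) for Dclk1 (black stars) and the 8 genes closest to it (coloured points), by library. The points are above 0 in all control and below 0 in all LTβR-Ig libraries; for Dclk1 the lowest point is LTβR-Ig replicate 2, at 11.5 CPM.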

How the data were processed

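The deposited values are raw counts per gene and library in 1 matrix, not normalized. HISAT2, HTSeq and the build mm10 are named in the submitters' processing notes. The sources used here give no version, annotation or strand setting, and no value column was left out. Symbols, positions and exon lengths came from GENCODE M21 (GRCm38), where 52489 of 52636 IDs matched without their version, and promoters from RefSeq (GRCm38.p6).

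Counts were fitted with edgeR 4.0.16 in R 4.3.3: TMM scaling, filterByExpr (minimum count 10, minimum total 15), robust quasi-likelihood F test without covariates on all 8 libraries, and Benjamini-Hochberg adjustment over 16045 genes. Intervals of 95% use the fit's degrees of freedom. The script was tested on simulated data with 200 changed genes. Log2 CPM for likeness used a prior count of 2. Alternatives were other scalings, DESeq2 1.42.0, limma-voom 3.58.1, other filters, the replicate number as a block and each library left out. Beyond these, 2 settings were added after the members' counts had been seen, because Map1b was high in control replicate 2.

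The members and gene lists were chosen with earlier results of these data known. Named were the members, in each list the 2 genes with the smallest p and the 1 with the highest level, the 8 genes most like Dclk1, and overlapping and nearest genes. Sirt2, Kif21a, Tuba1c, Mtus1, Camk4, the single marker genes and genes with 0 or few counts were named after their values were seen.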

Additional observations from a re-analysis of the deposited data

Results flagged for a closer look

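Dixon's criterion for a single distant library was applied to 12 combinations of gene and group, 4 libraries each. By chance about 1 in 20 would meet it, and 2 did. Dclk2 was at 15.7 CPM in LTβR-Ig replicate 2, with the next library at 10.1 CPM. Map4 was at 38.2 CPM in LTβR-Ig replicate 1, with the next library at 14.2 CPM. The cause of either was not tested.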

How the results depend on the processing

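The count of genes past the threshold, 6 in edgeR, was 338 in DESeq2, 14 in limma-voom, 22 with a strict low-count filter (at least 10 counts in 4 libraries and a mean of 5 CPM), and 1 with a replicate block. Counts were 2 to 9 when each library was left out. Dclk1 kept its direction in every setting run (-1.96 to -2.18 without single libraries). Its groups, like those of Map1b, did not overlap, so leaving out a single library could not turn the sign of either gene. Dclk1 missed the threshold with the block (-2.11, edgeR adjusted p = 0.195) and without control replicate 3 (-2.06, edgeR adjusted p = 0.0533). Map1b also kept its direction, at 1.33 to 1.83 without single libraries, and passed in 2 of 15 planned settings, DESeq2 (1.47) and without control replicate 2 (1.83, edgeR adjusted p = 0.0237), with adjusted p up to 0.435 when another library was left out. It passed in both of the 2 settings chosen after seeing the data, which were picked with its high value in control replicate 2 known and so are no independent support. These were the strict filter without control replicate 2 (11 genes past the threshold; Map1b 1.83, edgeR adjusted p = 0.00549) and the strict filter with the block (18 genes; Map1b 1.56, edgeR adjusted p = 0.0466). The direction of Dclk2 turned in limma-voom (0.0307), and without single libraries it ranged from -0.29 to 0.24. That of Map4 turned in limma-voom (0.0219) and without control replicate 1 (0.048), with a range from -0.88 to 0.05. Of the 155 other genes in the 12 lists, DESeq2 called 5 and edgeR without any single library 0. The causes were not tested. Map1a has no value under the strict filter, which removed it. The design text speaks of 4 pairs, but deviations of same-numbered libraries correlated by only 0.000129 to 0.0749. Most libraries correlated best with a library of another number, which cannot tell weak pairing from none. The main fit did not take the numbers to pair the libraries. What a pair shares is not given in the labels, and these correlations do not show that nothing is shared. At 4 libraries a group, intervals as wide as those of Map4 and Map1a limit what could be seen.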

Other observations

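The kinase domain of doublecortin-like kinases is related to those of the calmodulin kinases, and 9 of 12 genes of that family were tested. Their median log2 fold change was 0.76, against -0.00 over all genes, and 3 were higher at an unadjusted edgeR p under 0.05, against 3.39% of all genes tested, while none passed over all genes. Pnck, a calmodulin kinase relative, had means of 1.21 ± 0.765 CPM with HEL-Ig and 5.46 ± 2.36 CPM with LTβR-Ig (SD, n = 4 each; log2 fold change 2.17, edgeR adjusted p = 0.604). Its groups did not overlap, where 2.36% of all genes tested were higher without overlap. The gap was narrow, from 2.00 CPM in control replicate 4 to 2.61 CPM in LTβR-Ig replicate 1. Camk1 was at 16.5 ± 5.36 and 27.8 ± 7.27 CPM (log2 fold change 0.76, edgeR adjusted p = 0.698), and Camk4 at 6.71 ± 2.01 and 12.1 ± 3.94 CPM (0.85, edgeR adjusted p = 0.735), with overlapping groups. Camk2g, the most abundant of them per kb, had 0.09 on the log2 scale (95% interval -0.51 to 0.70).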
